A study of Homo sapiens with 60 samples.

Results

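A set of 10 genes of the NF-κB pathway was followed in metal-treated human astrocytoma cells. It held the feedback inhibitor genes NFKBIA and TNFAIP3, and NFKBIZ, the gene of the nuclear modulator IκBζ. It also held the subunit genes NFKB1, NFKB2 and RELB, and the secreted factors CXCL8, LIF, IL6 and CCL2. These genes were chosen by name, with earlier results of these data known. They are 10 of the 62703 genes in the count table, and all 60 libraries were used. Of the 10 genes, 8 passed the filter on low counts and were tested among 12341 genes. IL6 and CCL2 were at the count floor, set at 3 counts per library, in every one of the 60 libraries and were not tested. CXCL8 was tested, but 20 of its 60 libraries held 3 counts or fewer.

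NF-κB is a family of transcription factors held in the cytoplasm by IκB proteins. Signals from cytokine and pattern-recognition receptors activate the IκB kinase, the IκB protein is degraded, and the freed dimers enter the nucleus and switch on inflammatory genes. Several of these targets are brakes: NFKBIA encodes IκBα itself, TNFAIP3 encodes the ubiquitin-editing enzyme A20, and the precursor and partner subunits NFKB1, NFKB2 and RELB are induced as well. Astrocytes and glioma cells can use this route to secrete the neutrophil chemokine CXCL8, the monocyte chemokine CCL2, and IL6 and LIF, which both signal through gp130.

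The cells were 1321N1, a single line derived from a brain astrocytoma. They were left non-treated or received medium with 2.55 µM sodium metaarsenite (arsenic), 2.3 µM cadmium chloride (cadmium) or 20 µM mercury chloride (mercury), and were lysed early, after 1.5 or 3 h, or later, after 6, 12 or 24 h. By the study's methods, treatment began with a change of medium to one with metal. Whether the non-treated cells also received fresh medium is not stated there. Each of the 20 groups held 3 libraries of 3′ mRNA tags. The series text calls the triplicates technical, so p-values measure the spread between these samples and may not cover separate cultures. The metal doses were chosen by the study to be about equally toxic, not to be equal in concentration.

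The libraries held 2215276 to 4404609 counts (median 3291417), and 3 counts equalled 0.682 to 1.36 CPM (the count scaled to a common library size) depending on the library. In bulk RNA, fewer cells of a kind and less RNA per cell cannot be told apart. The astrocyte genes GFAP, S100B, AQP4 and ALDH1L1 did not exceed 3 counts in any library, whereas VIM and CD44, which glioma lines express, had median levels of 4488 and 394 CPM. The other markers of the astrocyte and glioma list were low, with medians of 3.41 (NES), 2.94 (NDRG2), 0.840 (SLC1A3), 0.292 (ALDOC) and 0 CPM (SLC1A2). Of 13 markers of immune, vascular and epithelial cells 9 were at the floor throughout, and the 13 summed to 0.524 to 2.92 CPM in non-treated, 0 to 4.95 in arsenic, 0.310 to 3.37 in cadmium and 0.247 to 4.30 in mercury libraries.

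The stretches of DNA ahead of 6 of the genes are shown because these genes are textbook NF-κB targets and the sites by which they are known can be read in them. They were cut from the RefSeq promoter windows of GRCh38.p14, which run from 250 bases before to 50 bases after a transcript start, and are given on the gene's strand, 5′ to 3′. Windows were found for 7 of the 10 genes (11 windows in all). Capitals mark a match to the κB consensus or, for CXCL8, to the shorter core GGAATTTCC.
NFKBIA: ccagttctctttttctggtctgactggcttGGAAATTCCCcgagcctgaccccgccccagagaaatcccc
TNFAIP3: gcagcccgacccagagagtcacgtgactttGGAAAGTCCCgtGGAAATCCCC
NFKBIZ: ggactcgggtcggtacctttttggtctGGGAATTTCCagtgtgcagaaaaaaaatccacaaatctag
NFKB1: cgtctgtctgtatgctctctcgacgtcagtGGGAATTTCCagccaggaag
CXCL8: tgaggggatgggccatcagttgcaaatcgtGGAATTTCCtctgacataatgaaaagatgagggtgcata
IL6: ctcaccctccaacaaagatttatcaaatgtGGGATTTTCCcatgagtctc

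These stretches lie at chr14:35404791-35404860 on the minus strand for NFKBIA and on the plus strand at chr6:137867162-137867213 for TNFAIP3, chr3:101827740-101827806 for NFKBIZ, chr4:102501280-102501329 for NFKB1, chr4:73740448-73740516 for CXCL8 and chr7:22727097-22727146 for IL6. The first 5 are upstream of the annotated gene and hold no annotated exon. The IL6 stretch is upstream of a RefSeq transcript start but within the gene span given in the files, which begins at an earlier start. The κB consensus, searched on both strands, was in 11.3% of the 35116 promoter windows of all genes, so a match in 1 window is common. The core GGAATTTCC, added after the consensus search had missed CXCL8, was in 0.461% of all windows and in those of NFKBIA, NFKBIZ, NFKB1 and CXCL8, where it overlaps the consensus in the first 3. NFKBIZ and NFKB2 had further consensus matches in windows of later starts, which are not shown. Of the other motifs searched, AP-1 (TGANTCA, 7.71% of all windows) was in the CXCL8 window at -137 to -131 from the start, and the antioxidant motif (TGACNNNGC, 13.3%) was in the NFKBIA window at -65 to -57. The heat-shock (GAANNTTC, 6.77%) and ATF4-type (TGATGNAA, 3.62%) motifs were not in these windows. No binding was measured here, and a match describes letters only.

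**Figure D1:**
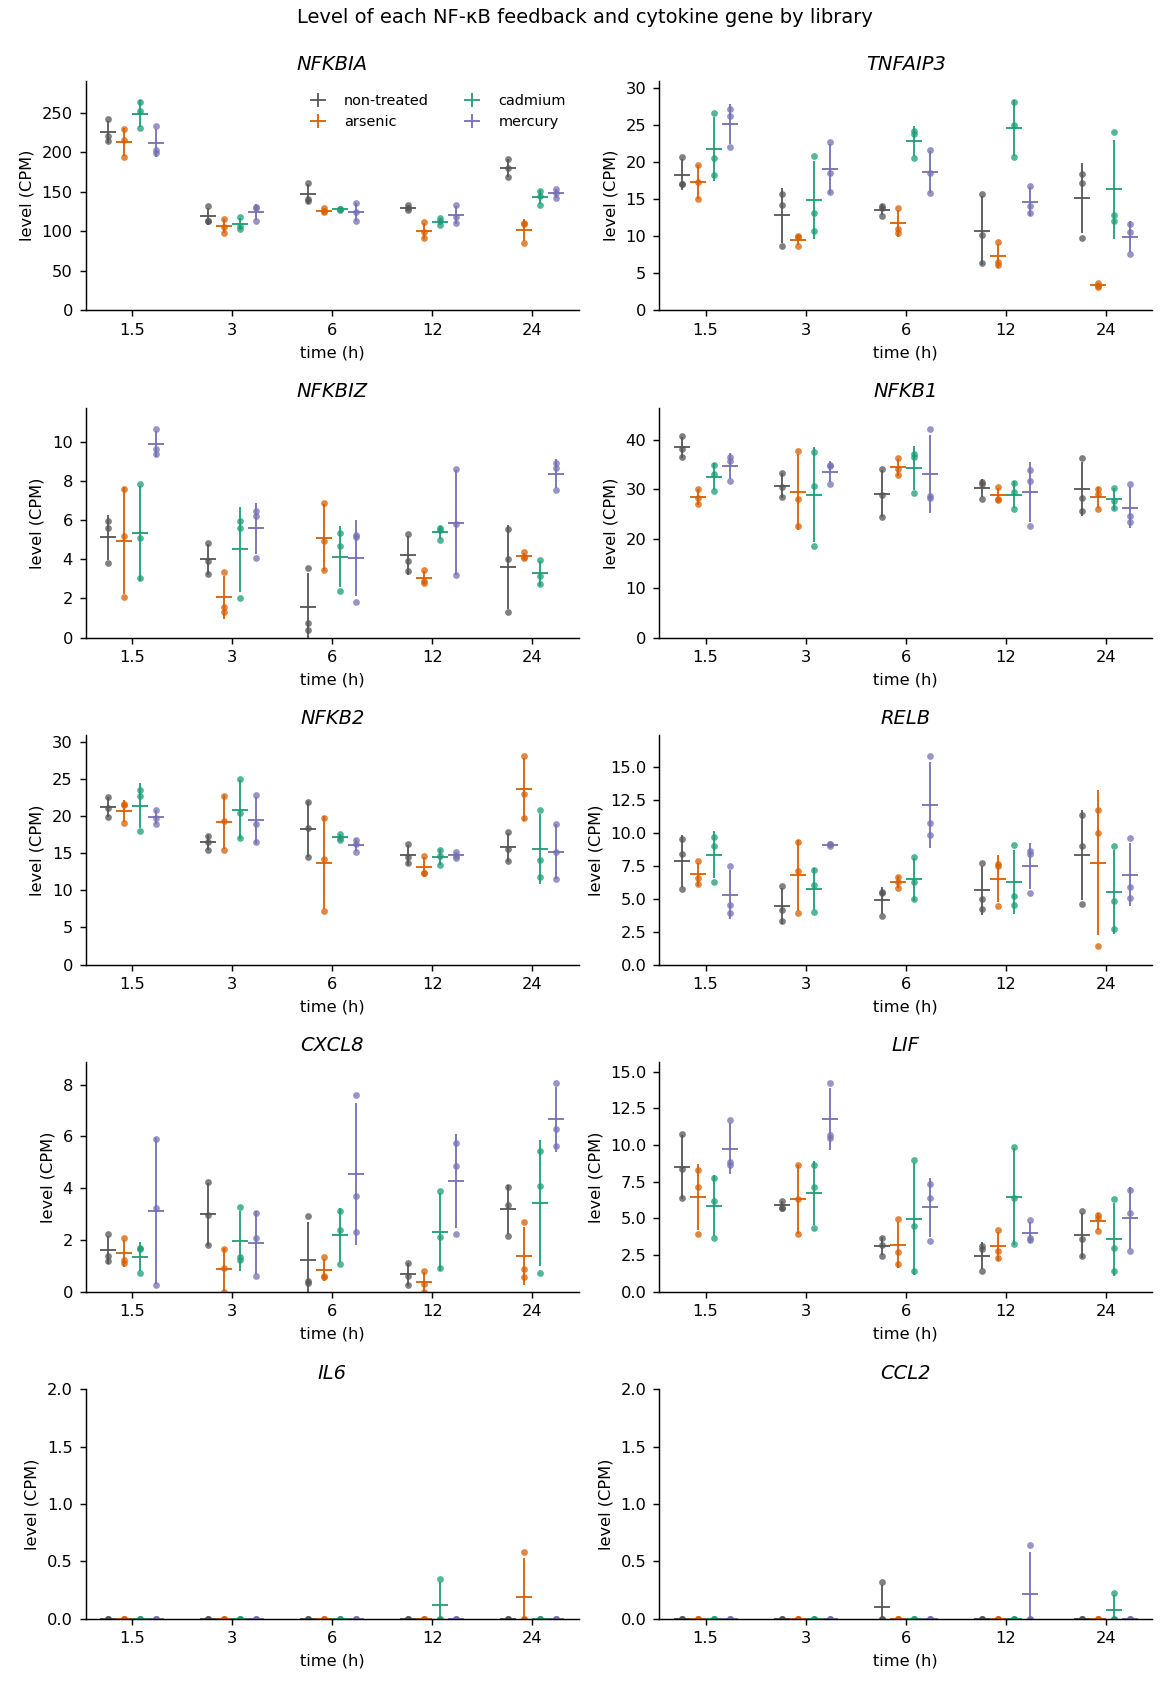
Level of the 10 genes in every library (points, CPM) at the 5 time points, with the mean and SD of the 3 libraries per group (bars), for non-treated, arsenic, cadmium and mercury cells. NFKBIA was at 195 CPM or more in all libraries of 1.5 h, TNFAIP3 reached its lowest levels with arsenic at 24 h, and IL6 and CCL2 stayed at the floor.

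NFKBIA was counted most deeply, with 378 to 743 counts in the non-treated libraries. Their medians were 101 counts for NFKB1, 54 for NFKB2, 44 for TNFAIP3, 18 for RELB, 14 for LIF, 13 for NFKBIZ and 6 for CXCL8, so that only large differences could be resolved for the last 4. Each metal was compared with the time-matched non-treated cells by edgeR's quasi-likelihood test. A gene passed at a Benjamini-Hochberg adjusted p under 0.05 and was called differentially expressed where the log2 fold change (LFC) was also above 1 or below -1. The 8 tested genes passed in 9 of 120 gene-by-contrast tests, 4 higher and 5 lower. Some metal at some time changed 5 of the 8 (background 39.8% of all tested genes), 4 of them to differential expression (11.6%). With arsenic 2 of 8 genes passed at any time (background 15.8%), with cadmium 2 of 8 (9.87%) and with mercury 4 of 8 (34.1%). Differential expression was reached by 1, 1 and 3 of them, against a background of 3.65%, 2.26% and 9.44%.

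**Figure D2:**
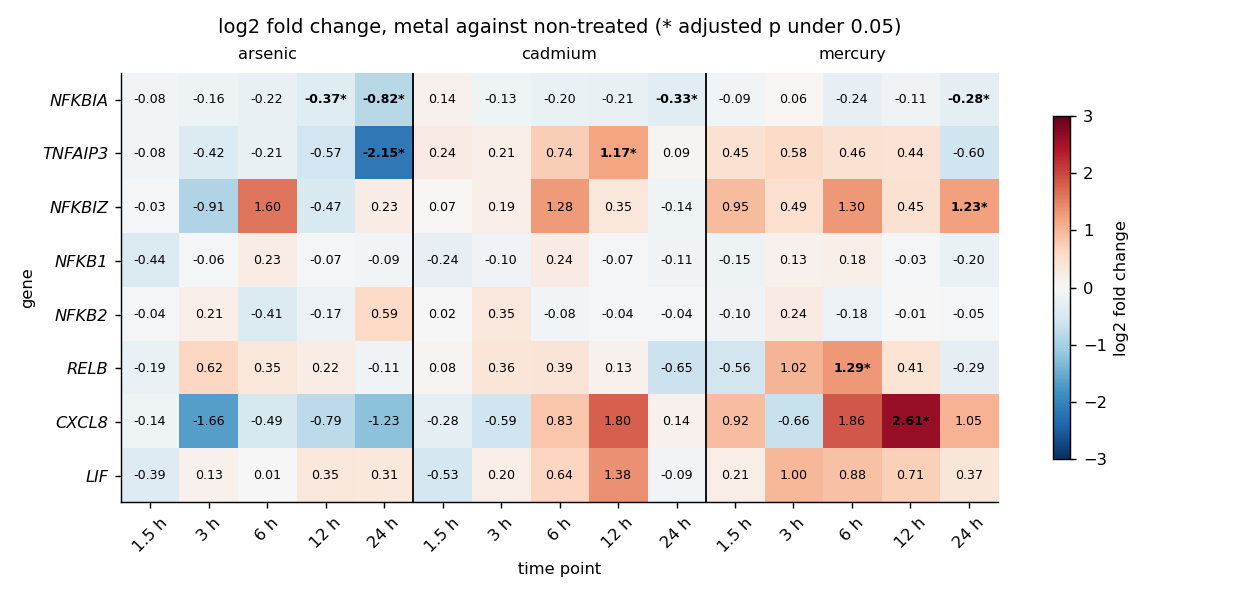
LFC of the 8 tested genes (rows) for each metal against non-treated cells at 5 time points (columns), coloured from -3 to 3, with an asterisk where the adjusted p was under 0.05. The 9 asterisks all lie at 6, 12 or 24 h, and the NFKB1, NFKB2 and LIF rows hold none.

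None of the 8 genes passed at 1.5 or 3 h. At 1.5 h the background for arsenic, cadmium and mercury was 0.0729%, 0% and 0.567% at the adjusted threshold. The unadjusted edgeR p was under 0.05 for 1, 0 and 1 of the 8, beside 1219, 991 and 694 of the 12341 tested genes. At 3 h the adjusted background was 0.138%, 0.203% and 1.55%. There the unadjusted p was under 0.05 for 1, 0 and 3 of the 8, beside 909, 1010 and 1057 of the 12341. At 6 h, where RELB passed with mercury, the adjusted background was 0.916%, 2.05% and 7.48%. DESeq2 also called 0 of the 8 in the 6 contrasts of 1.5 and 3 h. It gave no adjusted p to 7 of the 8 with arsenic at 1.5 h, and to 6 with arsenic and 6 with cadmium at 3 h. Across the 15 contrasts the libraries of the groups did not overlap for 12.3% to 37.9% of all tested genes, and statements below that groups did not overlap are to be read against that.

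The first of the brakes is NFKBIA (ENSG00000100906.12, chr14:35401079-35404749, minus strand), whose product IκBα retains NF-κB in the cytoplasm and is resynthesized after each activation. Its level changed with time in the non-treated cells themselves. After 1.5 h the non-treated libraries held 215, 221 and 242 CPM. This compares with 113, 113 and 132 CPM after 3 h and with 169, 180.3 and 191 CPM after 24 h. Every library of 1.5 h was above every library of the later times. Against non-treated 1.5 h, NFKBIA fell at 3 h (LFC -0.92 ± 0.10 SE, adjusted p = 8.85e-10), 6 h (LFC -0.62, adjusted p = 8.73e-05), 12 h (LFC -0.80, adjusted p = 1.38e-07) and 24 h (LFC -0.32, adjusted p = 0.0401). The last of these was lost without replicate 1 or 2 of either time (adjusted p 0.0533 to 0.181). In these 4 comparisons 2 of the 8 genes passed, NFKBIA in all 4 and LIF in 1, against 6.51% of all tested genes that passed in any (0.122%, 0.486%, 4.09% and 3.29% at 3, 6, 12 and 24 h). The metal-treated libraries of 1.5 h were high as well, at 195 to 229 CPM with arsenic, 231 to 264 with cadmium and 199 to 233 with mercury.

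Later, NFKBIA was lower with metal than without. At 24 h the arsenic libraries held 85.3, 110.0 and 110.4 CPM against 169, 180.3 and 191 in non-treated cells. The groups were far apart, and the arsenic level was 1.77-fold lower (LFC -0.82 ± 0.10 SE, adjusted p = 9.21e-10). From 12 to 24 h the arsenic mean stayed at 101 and 102 CPM, while the non-treated mean rose from 130 to 180 CPM. With cadmium the 24 h libraries held 134, 146 and 152 CPM (LFC -0.33 ± 0.10, adjusted p = 0.0490), and with mercury 142, 149 and 154 CPM (LFC -0.28 ± 0.10, adjusted p = 0.0199). All 6 of these libraries were below the lowest non-treated one, by a smaller distance than with arsenic. At 12 h only arsenic passed, with 91.3, 99.2 and 112 CPM against 127, 129 and 134 (LFC -0.37 ± 0.10, adjusted p = 0.0143). Among all tested genes 14.3% passed with arsenic at 24 h, 2.19% with cadmium and 27.8% with mercury, and 4.11% with arsenic at 12 h.

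The arsenic call at 24 h was kept whichever library was left out. The cadmium call was lost without any one of its 6 libraries (adjusted p 0.0607 to 0.249), the mercury call without mercury replicate 2 or non-treated replicate 1 or 3 (0.0541 to 0.118), and the arsenic call at 12 h without arsenic replicate 1 or 3 or non-treated replicate 3 (0.0599 to 0.128). Without the filter on low counts all 3 of these calls were lost (adjusted p 0.225, 0.117 and 0.0803), and when only the groups of the contrast were fitted the cadmium and the 12 h arsenic call were lost (0.334 and 0.0599).

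TNFAIP3 (ENSG00000118503.17, chr6:137867214-137883314, plus strand) encodes A20, which removes activating ubiquitin chains from the adaptors above the IκB kinase. It fell with arsenic at 24 h and rose with cadmium at 12 h. With arsenic at 24 h each of the 3 libraries held 11 counts, or 3.18, 3.24 and 3.68 CPM, against 38, 56 and 64 counts, or 9.79, 17.2 and 18.5 CPM, in non-treated cells. The groups did not overlap, and the level fell 4.45-fold (LFC -2.15 ± 0.32 SE, adjusted p = 2.78e-07). At 12 h the arsenic libraries held 6.16, 6.58 and 9.20 CPM and the non-treated ones 6.43, 10.2 and 15.7, which overlapped and did not pass (LFC -0.57, adjusted p = 0.327). The step in the arsenic effect from 12 to 24 h itself passed (LFC -1.58 ± 0.43, adjusted p = 0.0401). No other step between consecutive time points passed for these genes, so that 1 of 8 genes stood beside 4.54% of all tested genes with a step that passed. NFKBIA had the next lowest adjusted p (LFC -0.45, adjusted p = 0.0769), and its arsenic step passed in DESeq2 (0.0429) and without replicate 3 of either arsenic group (0.0419 and 0.0470). The steps of cadmium and mercury gave 0 calls in edgeR and in DESeq2. An unadjusted p under 0.05 occurred in 2 and 4 of 32 edgeR tests each, without a share over all genes at that threshold.

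With cadmium at 12 h TNFAIP3 held 20.7, 25 and 28.1 CPM against the 6.43, 10.2 and 15.7 CPM of non-treated cells. All 3 cadmium libraries were above the highest non-treated one, although the non-treated libraries were spread widely, and the level rose 2.26-fold (LFC 1.17 ± 0.26, adjusted p = 0.00103, background 8.18%). At 6 h the cadmium libraries held 20.6, 23.8 and 24.2 CPM against 12.8, 13.9 and 14.1, again without overlap, but the test did not pass (LFC 0.74, adjusted p = 0.134). By 24 h the cadmium and non-treated ranges overlapped (LFC 0.09, 95% interval -0.42 to 0.59). Without metal, TNFAIP3 at 12 h was below 1.5 h by an LFC of -0.76 (adjusted p = 0.0852), which was -1.15 and passed without non-treated 12 h replicate 3 (adjusted p = 0.0170). With mercury the LFC was 0.45, 0.58, 0.46, 0.44 and -0.60 from 1.5 to 24 h and passed at no time. Without non-treated replicate 1, the lowest of its group, the mercury value at 24 h was -0.83 and passed (adjusted p = 0.0255). The arsenic call at 24 h and the cadmium call at 12 h were kept whichever library was left out. The step from 12 to 24 h was lost without any 1 of 9 of the 12 libraries in it, namely arsenic 12 h replicate 1 or 2, any arsenic 24 h library, non-treated 12 h replicate 1 or 2 and non-treated 24 h replicate 2 or 3 (adjusted p 0.0622 to 0.141).

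**Figure D3:**
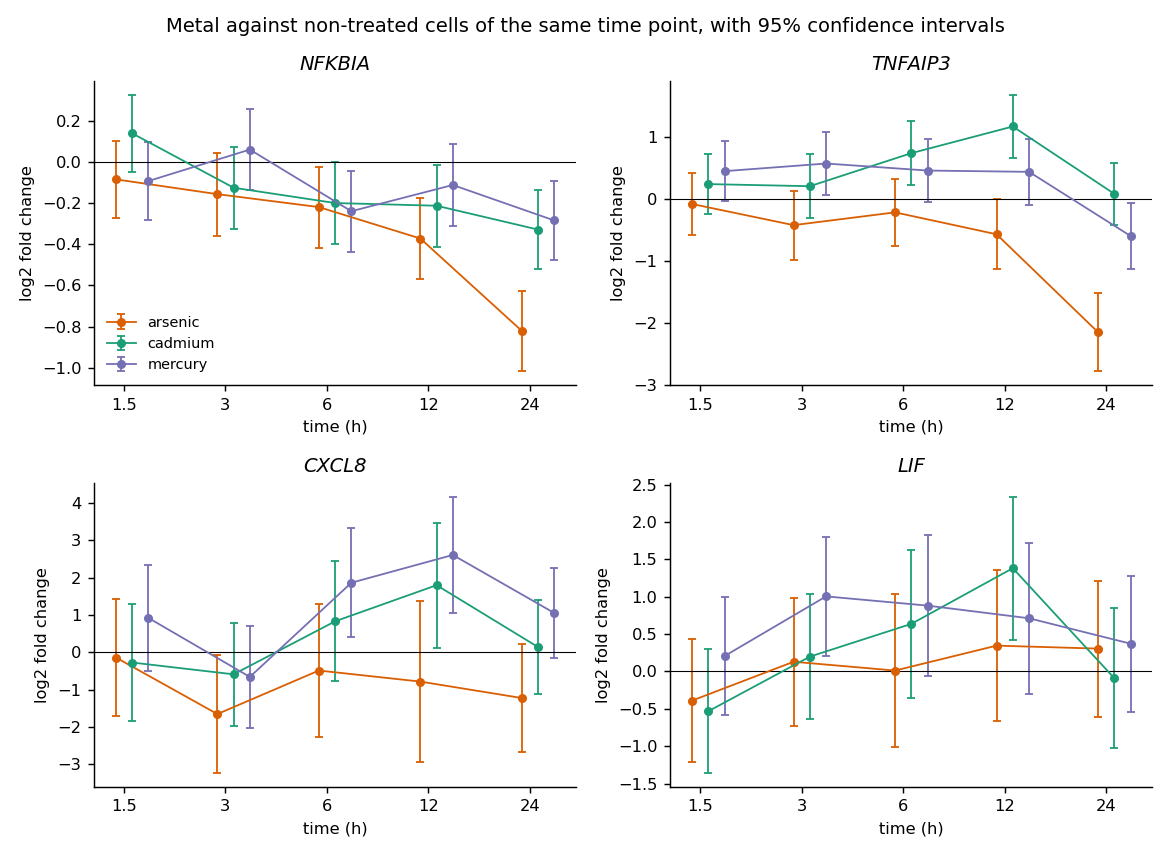
LFC of NFKBIA, TNFAIP3, CXCL8 and LIF against time-matched non-treated cells (vertical axis, separate scale per gene) over 1.5 to 24 h, with 95% confidence intervals, for arsenic, cadmium and mercury. For TNFAIP3 the arsenic point at 24 h (-2.15) lies far below the others, while the CXCL8 and LIF intervals mostly cross 0.

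NFKBIZ (ENSG00000144802.11, chr3:101827991-101861022, plus strand) encodes the nuclear IκBζ, which modulates NF-κB at a subset of its targets. With mercury at 24 h it held 24, 27 and 28 counts, or 7.55, 8.68 and 8.92 CPM, against 5, 14 and 18 counts, or 1.29, 4.04 and 5.53 CPM. The mercury libraries were all higher and close together, and the level rose 2.35-fold (LFC 1.23 ± 0.44 SE, adjusted p = 0.0287). This call was lost without mercury replicate 2 or 3 or without non-treated replicate 1, which held the 5 counts (adjusted p 0.0673 to 0.227). Mercury libraries also stood above non-treated ones at 1.5 h, at 9.36, 9.65 and 10.7 CPM against 3.82, 5.58 and 5.97, without passing (LFC 0.95, adjusted p = 0.765).

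At 6 h the NFKBIZ result turned on low non-treated libraries. At the other times the non-treated counts ranged from 5 to 19. The 6 h counts of 1 and 2 lay below that range, and the 11 lay within it. The non-treated counts were 1, 2 and 11, and arsenic, cadmium and mercury had an LFC of 1.60, 1.28 and 1.30, none of which passed (adjusted p 0.185, 0.285 and 0.144). Without replicate 3, which held the 11 counts, the values were 3.06, 2.74 and 2.76 and all 3 passed (adjusted p 0.0203, 0.0498 and 0.0157). They then rest on non-treated libraries of 1 and 2 counts, which are under the floor. The arsenic step from 3 to 6 h also passed only without that library (LFC 3.98, adjusted p = 0.0495).

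Among the subunit genes, NFKB1 (ENSG00000109320.14, chr4:102501330-102617302, plus strand), the gene of p105 and its product p50, passed in none of the 15 contrasts. Its LFC lay between -0.44, with arsenic at 1.5 h, and 0.24, with cadmium at 6 h. The arsenic value came from arsenic libraries of 27.0, 28.3 and 30.1 CPM against 36.6, 38.2 and 40.8 CPM in non-treated cells. These ranges did not overlap, but the adjusted p was 0.360. At 24 h the 95% intervals were -0.44 to 0.27 with arsenic, -0.46 to 0.25 with cadmium and -0.56 to 0.17 with mercury.

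NFKB2 (ENSG00000077150.21, chr10:102394110-102402524, plus strand), the gene of p100 and p52 in the noncanonical branch, also passed in none of the 15 contrasts. With arsenic at 24 h it held 19.7, 23.0 and 28.1 CPM against 13.9, 15.6 and 17.8 CPM, just without overlap (LFC 0.59 ± 0.21 SE, adjusted p = 0.0517). This value passed with DESeq2 (adjusted p = 0.0410), with RLE scaling (0.0493), with the stricter count filter (0.0407) and without arsenic replicate 1 (0.0394). It did not pass under the other alternatives. These were no filter, the replicate number as a block, a fit of only those groups, a test of an LFC beyond 1, and leaving out any other library of those groups. With cadmium and mercury at 24 h the LFC was -0.04 and -0.05.

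RELB (ENSG00000104856.15, chr19:45001461-45038192, plus strand) encodes the subunit that pairs with p52. With mercury at 6 h it held 37, 40 and 52 counts, or 9.82, 10.7 and 15.8 CPM, against 9, 15 and 17 counts, or 3.67, 5.46 and 5.48 CPM. Every mercury library was above every non-treated one, and the level rose 2.45-fold (LFC 1.29 ± 0.41 SE, adjusted p = 0.0352, background 7.48%). The call was lost without mercury replicate 1 or 2 or any non-treated library (adjusted p 0.0509 to 0.175). Mercury libraries were also apart at 3 h, at 9.04, 9.13 and 9.18 CPM against 3.32, 4.14 and 5.99 (LFC 1.02, adjusted p = 0.366), and the ranges overlapped at 12 and 24 h. With arsenic at 24 h the libraries held 5, 30 and 40 counts, so that 1 library of 1.45 CPM stood apart from those of 10.0 and 11.8.

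Of the secreted factors, CXCL8 (ENSG00000169429.12, chr4:73740519-73743716, plus strand), the neutrophil chemokine interleukin-8, had the largest LFC of the 9 calls. With mercury at 12 h it held 7, 14 and 15 counts, or 2.24, 4.86 and 5.73 CPM, against 1, 2 and 4 counts, or 0.262, 0.618 and 1.12 CPM, in non-treated cells. All mercury libraries were higher, although few counts carried the difference (LFC 2.61 ± 0.78 SE, adjusted p = 0.0140, background 16%). Summed over 3 libraries, 36 counts against 7 gave a ratio of 6.32 per library size, with an exact 95% interval of 2.77 to 16.8 that covers counting error only. The call was lost without mercury replicate 1 or 2 or non-treated replicate 3 (adjusted p 0.0522 to 0.0835). DESeq2 gave CXCL8 no adjusted p in this contrast, and it was not tested with the stricter filter or when only those groups were fitted.

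Mercury libraries held more CXCL8 at 24 h as well, at 17, 20 and 26 counts against 7, 13 and 14, but this did not pass (LFC 1.05, 95% interval -0.16 to 2.26, adjusted p = 0.198). At 6 h they held 8, 15 and 25 counts against 1, 1 and 8 (LFC 1.86, adjusted p = 0.110). Without non-treated replicate 2, which held the 8 counts, that LFC was 3.53 and passed (adjusted p = 0.0244). With arsenic the counts were 0, 1 and 3 at 12 h, the only group in which CXCL8 was at the floor in all 3 libraries.

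LIF (ENSG00000128342.5, chr22:30240453-30246759, minus strand) encodes leukemia inhibitory factor, a cytokine of the IL6 family. It passed with no metal, but its level followed time in the non-treated cells, with 6.37, 8.37 and 10.7 CPM after 1.5 h, then 5.69, 5.74 and 6.21 CPM after 3 h, then 1.40, 2.88 and 3.09 CPM after 12 h. The 1.5 h libraries were all above those of 3 to 24 h, and the fall from 1.5 to 12 h passed (LFC -1.77 ± 0.46 SE, adjusted p = 0.0162, background 4.09%). It was lost without non-treated 12 h replicate 1 (adjusted p = 0.139) or 1.5 h replicate 3 (0.0767). With cadmium at 12 h LIF held 3.25, 6.35 and 9.83 CPM, all above the non-treated libraries, and narrowly failed the test (LFC 1.38 ± 0.48, adjusted p = 0.0605). Of the alternatives, that value passed only in DESeq2 (adjusted p = 0.0386) and without cadmium replicate 2 (0.0273). With mercury at 3 h the libraries held 10.5, 10.7 and 14.2 CPM against 5.69, 5.74 and 6.21, without overlap (LFC 1.0, adjusted p = 0.352).

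IL6 (ENSG00000136244.12, chr7:22725884-22732002, plus strand) and CCL2 (ENSG00000108691.10, chr17:34255274-34257208, plus strand) were near absent from the libraries. IL6 had 3 counts in all 60 libraries together, 2 in 1 arsenic library of 24 h and 1 in 1 cadmium library of 12 h. CCL2 had 4 counts, 2 in 1 mercury library of 12 h and 1 each in 1 cadmium library of 24 h and 1 non-treated library of 6 h. As every group was at the floor, no fold change is given for either gene.

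Metals were also compared with each other at the same time point, without the non-treated libraries. In these 15 contrasts 14 of 120 tests passed, in 5 of the 8 genes (background 34%). Arsenic differed from cadmium in 3 of the 8 genes (background 14.2%) and from mercury in 4 (18.1%), and cadmium differed from mercury in 1 (23.1%). TNFAIP3 was lower with arsenic than with cadmium at 6 h (LFC -0.96), 12 h (LFC -1.74) and 24 h (LFC -2.24). At 24 h the cadmium libraries held 12.0, 12.9 and 24.1 CPM, all well above the arsenic libraries, and the arsenic level was 4.72-fold lower (adjusted p = 1.39e-07). TNFAIP3 was also lower with arsenic than with mercury at 3, 12 and 24 h, where the mercury libraries of 24 h held 7.60, 10.5 and 11.6 CPM (LFC -1.56 ± 0.34 SE, adjusted p = 0.000615).

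CXCL8 was lower with arsenic than with mercury at 6, 12 and 24 h. At 24 h the arsenic libraries held 2, 3 and 8 counts and the mercury libraries 17, 20 and 26, without overlap (LFC -2.28 ± 0.68, adjusted p = 0.0190). The summed counts, 13 against 63, gave a mercury level 5.06 times that of arsenic (exact 95% counting interval 2.75 to 10.0). At 12 h arsenic was at the floor in all 3 libraries, and its 4 counts stood against 36 with mercury, a ratio of 11.3 (4.04 to 43.6). NFKBIA was lower with arsenic than with cadmium (LFC -0.49, adjusted p = 0.000220) and mercury (LFC -0.54, adjusted p = 6.06e-05) at 24 h. NFKB2 was higher with arsenic than with cadmium (LFC 0.63, adjusted p = 0.0457) and mercury (LFC 0.63, adjusted p = 0.0436) at 24 h, and the cadmium range of 11.8 to 20.8 CPM overlapped that of arsenic. Between cadmium and mercury, only NFKBIZ at 24 h passed, at 2.73, 3.15 and 3.95 CPM with cadmium against 7.55, 8.68 and 8.92 with mercury (LFC -1.37 ± 0.45, adjusted p = 0.0209). TNFAIP3 did not pass between cadmium and mercury at 24 h (LFC 0.68, adjusted p = 0.0617), although the libraries did not overlap, but passed without cadmium replicate 1 (LFC 0.86, adjusted p = 0.0295) or 2 (LFC 0.81, adjusted p = 0.0403). At 12 h it had an LFC of 0.73 (adjusted p = 0.107), which passed when only those groups were fitted (adjusted p = 0.0454). For RELB, NFKB1 and LIF no pair of metals passed at any time.

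Over the 8 genes as a list, the 24 h median LFC was -0.10 (arsenic), -0.10 (cadmium) and -0.12 (mercury), beside 0.00, -0.01 and -0.02 over all tested genes. The median was furthest from 0 with mercury at 6 h, at 0.67, when 1 gene passed (background 7.48%) and RELB, CXCL8 and NFKBIZ had the highest values. CXCL8 and NFKBIZ did not pass, and their non-treated 6 h libraries held only 1, 1 and 8 counts and 1, 2 and 11 counts. Against the same non-treated libraries the list median was 0.51 with cadmium and -0.10 with arsenic. The genes around them in the pathway were read from lists of textbook members, chosen with earlier results of these data known. Of the 6 other subunit and IκB genes (RELA, REL, NFKBIB, NFKBIE, NFKBID and BCL3) 5 were tested. NFKBIB, which encodes IκBβ, was the only one to pass with some metal, beside 39.8% of all tested genes. With cadmium it passed at 12 h (LFC 0.59, background 8.18%). With mercury it passed at 12 h (LFC 0.74, background 16%) and 24 h (LFC 0.60, background 27.8%). REL shares nearly all of its last 400 exonic bases with another gene on the same strand, so its counts are uncertain.

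Of 32 receptors, adaptors and kinases that feed NF-κB, 26 were tested and 14 passed with some metal, beside 39.8% of all tested genes. TLR4, the lipopolysaccharide receptor, rose with mercury at 12 h from 8, 9 and 9 counts to 14, 20 and 38 (LFC 1.73, adjusted p = 0.00204) and with cadmium at 12 h (LFC 1.40). TAB1, a partner of the kinase TAK1, fell with mercury at 6 h (LFC -1.26, adjusted p = 0.000963). MAP3K14, the kinase NIK of the noncanonical branch, fell with arsenic at 12 h (LFC -1.23, adjusted p = 0.00883), and TRADD, the adaptor of the TNF receptor, fell with mercury at 24 h (LFC -1.22, adjusted p = 0.0121). At 24 h 1 gene of this list was higher and 3 were lower with arsenic, none passed with cadmium, and 2 were higher and 3 lower with mercury. Over all tested genes the shares that passed at 24 h were 14.3%, 2.19% and 27.8%. RNF31, at 0 counts, shares its last 400 exonic bases with another gene on the same strand, so its level is uncertain, as is that of IKBKG, which has a near-identical pseudogene. Of 13 other brakes 11 were tested and 5 passed with some metal, again beside 39.8% of all tested genes. ZC3H12A, the RNase regnase-1 that degrades cytokine mRNAs, rose with mercury from 25, 26 and 33 counts to 43, 55 and 57 at 12 h (LFC 1.18 ± 0.31, adjusted p = 0.00438) and was higher at 24 h (LFC 1.0, adjusted p = 0.00765).

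The NF-κB targets listed as secreted were mostly at the floor. Of 23 listed beside the 4 genes above, 14 were at the floor in all 60 libraries, TNF and IL1A among them, and 10 had no count at all. Only 4 passed the filter, and each of those passed a test with mercury, as did 34.1% of all tested genes. PTX3, the soluble pattern receptor pentraxin 3, rose with mercury at 12 h from 55, 84 and 89 counts to 175, 183 and 187 (LFC 1.56 ± 0.21, adjusted p = 2.74e-08) and with cadmium at 12 h (LFC 1.47, adjusted p = 3.46e-07). IL11, another gp130 cytokine, rose with mercury at 24 h from 4, 7 and 7 counts to 28, 34 and 47 (LFC 2.72 ± 0.56, adjusted p = 0.000104). CXCL3, a chemokine that shares a receptor with CXCL8, held 15, 17 and 18 counts with mercury at 12 h against 0, 0 and 6 (adjusted p = 0.00198), a ratio of 10.2 over summed counts (exact 95% counting interval 4.39 to 29.2). CXCL3 has close paralogues in CXCL1 and CXCL2, so its counts and the absence of CXCL1 counts are uncertain. CSF1, the macrophage growth factor, rose with mercury at 12 h (LFC 1.23, adjusted p = 3.97e-05) and with arsenic at 12 h (LFC 0.91). The low-count genes of this list passed the filter partly through the groups in which they were high.

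A list of 26 further targets, labelled intracellular and surface, also held the secreted proteins MMP1, MMP3, MMP9 and PLAU. Of its 26 genes 20 were tested and 13 passed with some metal, beside 39.8% of all tested genes. At 24 h with mercury 10 were higher and 1 was lower, with a median LFC of 0.42, where 13.9% of all tested genes were higher and 13.9% lower. As the list was chosen with earlier results of these data known, these shares only describe it. With arsenic 3 were higher and 4 lower, beside 6.54% and 7.75% of all tested genes. MMP3, the matrix protease stromelysin, held 0, 0 and 1 counts in non-treated cells at 24 h against 21, 27 and 30 with mercury and 3, 15 and 24 with cadmium. With so few non-treated counts it passed the filter through the treated groups in which it was high, so its adjusted p is not given. It is among the 10 counted as higher with mercury. GADD45A, a growth-arrest gene that other stress routes also induce, rose with mercury at 12 h (LFC 2.02 ± 0.17, adjusted p = 4.33e-15) and passed at all 5 times with mercury. PLAUR, the urokinase receptor, rose with mercury at 24 h from 118 ± 17.2 to 431 ± 36 CPM (SD, n = 3, LFC 1.86, adjusted p = 7.77e-24). PLAU, urokinase itself, fell with arsenic at 24 h from 13, 26 and 37 counts to 6, 6 and 8 (LFC -1.78 ± 0.48, adjusted p = 0.00671). BIRC3, an inhibitor of apoptosis above the IκB kinase, fell with arsenic at 24 h from 38.9 ± 6.03 to 12.4 ± 4.65 CPM (LFC -1.64, adjusted p = 8.99e-11) and with mercury (LFC -1.42, adjusted p = 2.10e-09). ICAM1, VCAM1 and MMP9 were at the floor in all libraries.

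**Figure D4:**
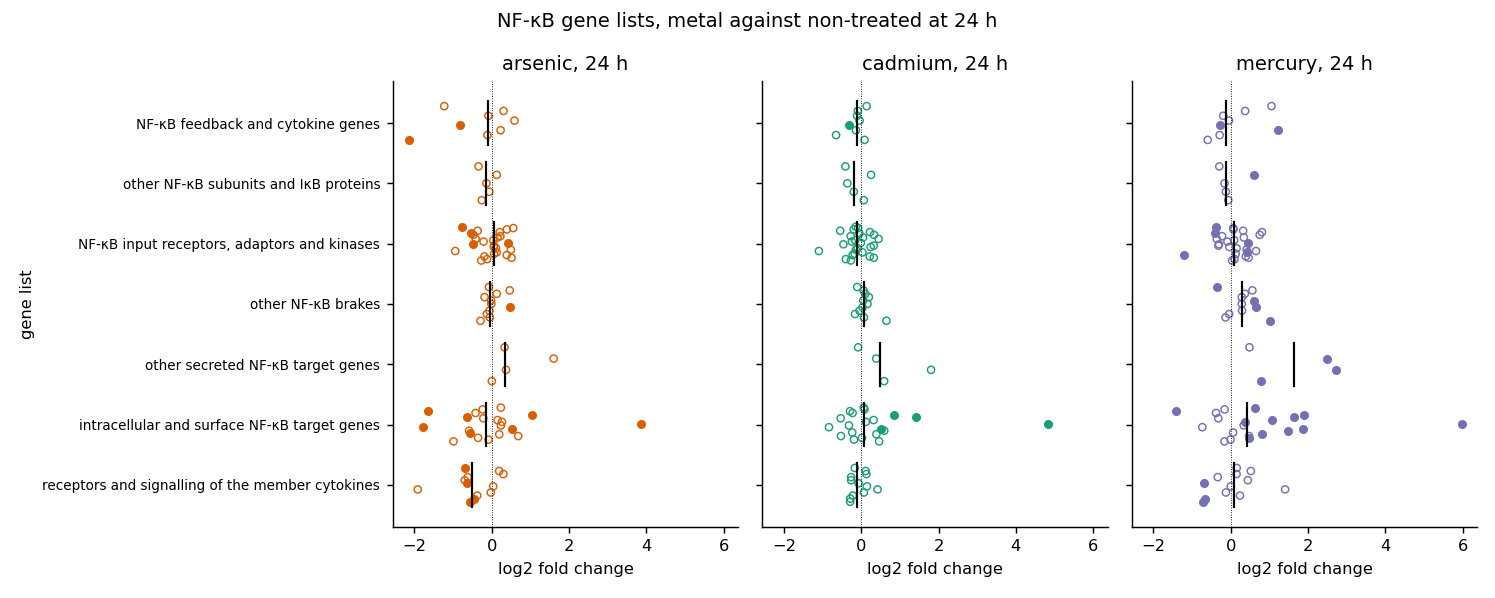
LFC (horizontal axis) of the tested genes of 7 lists (vertical axis) at 24 h with arsenic, cadmium and mercury. Filled points passed at an adjusted p under 0.05, open points did not, and the black bar is the list's median. With mercury the median of the list labelled intracellular and surface targets was 0.42, and that of the 8 feedback and cytokine genes was -0.12. The point furthest right for each metal is MMP3, a secreted protein of the former list. With 0, 0 and 1 counts in non-treated cells, MMP3 passed the filter on low counts through the treated groups in which it was high.

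The receptors that the member cytokines use were partly at the floor too. CXCR1, CXCR2, CCR2 and ACKR2, which bind CXCL8 or CCL2 and its relatives, did not exceed 1 count in any library. Of the 12 tested genes of this list 6 passed with some metal, beside 39.8% of all tested genes, and none was differentially expressed, beside 11.6%. SOCS3, the feedback inhibitor below gp130, rose with mercury at 12 h (LFC 0.78, adjusted p = 6.60e-05) and with cadmium at 6 h (LFC 0.74, adjusted p = 0.000999). STAT3, the transcription factor of the same route, fell at 24 h with arsenic (LFC -0.47, adjusted p = 0.00626) and mercury (LFC -0.68, adjusted p = 2.55e-05).

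Genes whose 15 metal LFCs ran most nearly parallel to those of a member were listed among 7252 or 7253 genes averaging 50 counts or more. Nearest to NFKBIA was SCUBE3 (Pearson r = 0.91 over 15 points), followed by MRI1 and INF2. TNFAIP3 was nearest to ETS2 (0.92), AJAP1 and PLCXD3, and CXCL8 to ATP2A2 (0.90), FRMD6 and GNG12. LIF ran with S1PR3 (0.88), ERRFI1 and PTPRK, NFKB1 with VGLL3 (0.91), PSPH and ZNF664, NFKB2 with TRAF3IP1 (0.85), MIX23 and MARCKSL1, and RELB with SNX4 (0.78), CRCP and ZNF664. The 15 points share non-treated libraries within each time point and are not independent, so these values only describe likeness.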

How the data were processed

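Gene-level read counts of 60 libraries were analysed as deposited. According to the study's methods, the authors mapped 100-base single-end reads of QuantSeq 3′ libraries to GRCh38 with STAR 2.7.9a and counted them by strand over GENCODE 43 exons. A 3′ tag is read about once per transcript, so CPM was not divided by length. The 92 spike-in entries held 0 counts and were left out.

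Counts were tested in R 4.3.3 with edgeR 4.0.16: filterByExpr at a minimum count of 10, TMM factors (0.934 to 1.03), and 1 quasi-likelihood fit of all 60 libraries with a coefficient per group. Contrasts were 15 of metal against non-treated, 15 between metals, 4 of time without metal and 12 of steps between times. The p-values are two-sided and were adjusted by Benjamini-Hochberg over the 12341 genes of each contrast. Intervals of summed counts are exact (Clopper-Pearson).

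The genes, lists and motifs were chosen with earlier results of these data known. From each list the genes with the largest LFC among those differentially expressed, at most 4, were named, and NFKBIB, BIRC3, SOCS3, STAT3 and the genes at the floor were named after their values were seen. For likeness, 3 genes per member were named, and the result for NFKBIZ is not reported here. Replicate libraries were compared for copies (chi-square per degree of freedom 1.99 to 13.4, none identical). Same-numbered libraries did not deviate together (45 pairs, r from -0.278 to 0.0837), so the numbers were not taken to pair samples. The alternatives were DESeq2 1.42.0, RLE scaling, no filter, a minimum count of 30, glmTreat, fits of single contrasts, a replicate block and leaving out each library. The fit was checked on simulated data. Overlap with neighbouring genes was read from GENCODE 44.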

Additional observations from a re-analysis of the deposited data

Results flagged for a closer look

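A set of 15 results stood out because the effects of 2 metals, or of 1 metal at 2 times, differed by a test of the difference itself. All come from edgeR's quasi-likelihood test with Benjamini-Hochberg adjustment and are LFCs of the first metal against the second, or of the later effect against the earlier.

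For TNFAIP3, arsenic against cadmium gave -0.96 at 6 h, -1.74 at 12 h and -2.24 at 24 h (adjusted p 0.0353, 2.29e-06 and 1.39e-07), and arsenic against mercury gave -1.0 at 3 h, -1.01 at 12 h and -1.56 at 24 h (adjusted p 0.0298, 0.0159 and 0.000615). The step of the arsenic effect from 12 to 24 h was -1.58 (adjusted p = 0.0401). The differences from cadmium at 12 and 24 h and from mercury at 24 h passed without any 1 library. The others did not: the 6 h value from cadmium was lost without arsenic replicate 2 or 3 or any cadmium library (adjusted p 0.0654 to 0.226), the 3 h value from mercury without any arsenic library or mercury replicate 1 or 2 (0.0592 to 0.226), and the 12 h value from mercury without arsenic replicate 1 or 3 or mercury replicate 2 (0.0531 to 0.105).

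CXCL8 differed between arsenic and mercury at 6 h (-2.35, adjusted p = 0.0491), 12 h (-3.40, adjusted p = 0.00673) and 24 h (-2.28, adjusted p = 0.0190). The 6 h value was lost without any arsenic library or mercury replicate 1 (adjusted p 0.0814 to 0.303). The 12 h value, where arsenic was at the floor in all 3 libraries, was lost without arsenic replicate 2 (0.0639). The 24 h value was lost without arsenic replicate 2 or 3 or mercury replicate 2 (0.0739 to 0.121). For 6 and 12 h DESeq2 gave CXCL8 no adjusted p, and it was not tested when only those groups were fitted. With the stricter filter CXCL8 was not tested at 6, 12 or 24 h.

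At 24 h NFKBIA differed between arsenic and cadmium (-0.49, adjusted p = 0.000220) and between arsenic and mercury (-0.54, adjusted p = 6.06e-05), whichever library was left out. NFKB2 differed between arsenic and cadmium (0.63, adjusted p = 0.0457) and between arsenic and mercury (0.63, adjusted p = 0.0436). The former was lost without arsenic replicate 2 or 3 or cadmium replicate 1 or 2 (adjusted p 0.0822 to 0.255), and the latter without arsenic replicate 2 or 3 or mercury replicate 2 or 3 (0.0793 to 0.234). NFKBIZ differed between cadmium and mercury (-1.37, adjusted p = 0.0209), and this was lost without cadmium replicate 1 or 2 or mercury replicate 2 or 3 (0.0548 to 0.0856).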

How the results depend on the processing

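Among 372 alternative values of the 29 calls none reversed in direction. The calls were chosen because they passed in the main fit, so a reversal was unlikely beforehand. The glmTreat values repeat the LFC of the main fit, and settings that gave no adjusted p are not counted. Of the 29 calls, 11 passed without any 1 library. With arsenic, cadmium and mercury against non-treated cells the tests passed numbered 3, 2 and 4. They were 1, 0 and 0 when an LFC beyond 1 was itself tested (glmTreat), where the value had to exceed 1 beyond its error. For cadmium the count was 1 with RLE scaling, 1 without the filter and 1 when only the groups of the contrast were fitted. Leaving out 1 library gave 2 to 4 for arsenic, 1 to 3 for cadmium and 2 to 4 for mercury. Between metals the counts were 5 for arsenic against cadmium, 8 for arsenic against mercury and 1 for cadmium against mercury. They were 1, 0 and 0 with glmTreat. Arsenic against cadmium gave 3 without the filter. Arsenic against mercury gave 5 with a minimum count of 30, where CXCL8 was not tested and no call that was tested was lost. Fitting only the groups of the contrast gave 3, 4 and 2. In that fit CXCL8 was not tested between arsenic and mercury at 6 and 12 h. Leaving out 1 library gave 4 to 5, 6 to 8 and 0 to 1. The 5 time tests of non-treated cells became 0 with glmTreat and 4 to 6 without 1 library. The 1 step of arsenic became 0 with glmTreat and 0 in the smaller fit, 2 in DESeq2, and 0 to 2 without 1 library, while the steps of cadmium and mercury stayed at 0 to 0. Other calls lost in the smaller fit were TNFAIP3 between arsenic and cadmium at 6 h (adjusted p = 0.0510), arsenic and mercury at 3 h (0.0651) and in the arsenic step (0.137), and NFKB2 between arsenic and cadmium (0.166) or mercury (0.0706) at 24 h. Without the filter TNFAIP3 between arsenic and cadmium at 6 h (0.0504), NFKB2 between arsenic and cadmium (0.149) or mercury (0.159) and NFKBIA without metal at 24 h (0.129) were lost. Where counts moved for reasons other than CXCL8 leaving the tested genes, the cause was not tested.

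With the replicate number as a block, 27 of the 29 calls passed. NFKBIA with cadmium at 24 h (adjusted p = 0.0504) and NFKB2 between arsenic and cadmium at 24 h (adjusted p = 0.0501) did not, so the cadmium count under the replicate block was 1. As the libraries of one number did not deviate together, the block is no evidence of pairing.

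Depth limited the 4 genes with the fewest counts: with a median of 6 counts in non-treated libraries, CXCL8 intervals were wide, and IL6 and CCL2 were not compared.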
